A study of Rattus norvegicus with 49 samples.

Results

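Airway and ciliated epithelium genes were followed in rat thyroid tissue through 8 genes fixed by name, Scgb1a1, Bpifa1, Muc5b and Reg3g of secretory cells and Foxj1, Dnai1, Tekt1 and Sec14l3 of ciliated cells. A gene was found through the probe whose RefSeq accession maps to its symbol, and 7 of the 8 had such a probe, 1 each, out of 30367 probes on the array. Muc5b had no probe matched in this way and has no value here. Of the 7, 6 were among the 25284 probes tested, a set limited to probes with a signal well above background on 3 arrays or more of the 49. Reg3g was well above background on 2 arrays and was not tested.

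The 49 arrays were of 1 design (Agilent SurePrint G3 Rat GE), and each was hybridised with Cy3-labelled RNA from the thyroid of 1 male Sprague Dawley rat. Rats injected with 131I, a beta-emitting radioisotope that the thyroid takes up, were either 5 weeks old (called young here) or 17 weeks old (called adult). Young rats given 50 kBq were killed 3, 6 or 9 months later (4 arrays each), and young rats given 0.5 kBq (4 arrays), 5 kBq (3 arrays) or 500 kBq (4 arrays) were killed after 9 months. Adult rats given 50 kBq were killed after 3, 6 or 9 months (4 arrays each). Untreated rats of 4 months (4 arrays), 7 months (3 arrays), 10 months (4 arrays) and 13 months (3 arrays) were the controls. Each exposed group was compared with the controls of its own age at death, so 5 of the 9 comparisons share the controls of 10 months and 2 share those of 7 months. Values are log2 of the processed signal minus the 75th percentile of the array, so that 0 is the 75th percentile and a difference of 1 is 2-fold.

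The conducting airways are lined by a pseudostratified epithelium in which secretory cells and multiciliated cells stand side by side. Secretory cells release antimicrobial and surface-active proteins and mucins onto the lumen, and the beating cilia move that layer towards the throat. The thyroid lies against the trachea and the oesophagus, and follicular thyroid cells are not known as a source of these secretory proteins. Scgb1a1 encodes the club cell secretory protein. Bpifa1 encodes a secreted BPI-fold protein of the upper airways. Reg3g encodes an antibacterial lectin. Foxj1 is the forkhead transcription factor that switches on the motile cilium programme. Dnai1 is an intermediate chain of the outer dynein arm, Tekt1 is a tektin of ciliary microtubules, and Sec14l3 encodes a lipid-binding protein of ciliated airway cells. In a bulk sample, fewer cells of a type and less RNA per cell cannot be told apart.

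Promoter sequences of RefSeq, build GRCr8, were found for 6 of the 8 genes and span 250 bases before to 50 bases after the start of the gene. They were searched on both strands for GTTGCCA, part of the X-box of RFX factors, for GTAAACA, a forkhead motif, and for TATAAA. The motifs do not overlap in these windows. Bpifa1 and Scgb1a1 are shown because their signals ran together over the arrays, and Tekt1, Dnai1 and Sec14l3 as the ciliated members for comparison. Capitals mark a match to one of the motifs.
Scgb1a1, chr1:215409637-215409936 (- strand): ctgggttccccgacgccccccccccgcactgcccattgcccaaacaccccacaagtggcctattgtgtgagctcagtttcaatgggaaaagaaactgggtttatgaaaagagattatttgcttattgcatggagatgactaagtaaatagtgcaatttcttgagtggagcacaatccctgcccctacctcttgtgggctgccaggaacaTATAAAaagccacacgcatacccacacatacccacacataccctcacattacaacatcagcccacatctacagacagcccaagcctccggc
Bpifa1, chr3:163087715-163088014 (+ strand): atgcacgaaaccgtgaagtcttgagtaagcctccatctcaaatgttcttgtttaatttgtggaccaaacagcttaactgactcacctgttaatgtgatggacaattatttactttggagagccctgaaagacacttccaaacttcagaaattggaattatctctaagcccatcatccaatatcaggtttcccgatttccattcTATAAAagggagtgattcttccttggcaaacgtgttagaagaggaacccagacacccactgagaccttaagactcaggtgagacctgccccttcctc
Tekt1, chr10:57479072-57479371 (- strand): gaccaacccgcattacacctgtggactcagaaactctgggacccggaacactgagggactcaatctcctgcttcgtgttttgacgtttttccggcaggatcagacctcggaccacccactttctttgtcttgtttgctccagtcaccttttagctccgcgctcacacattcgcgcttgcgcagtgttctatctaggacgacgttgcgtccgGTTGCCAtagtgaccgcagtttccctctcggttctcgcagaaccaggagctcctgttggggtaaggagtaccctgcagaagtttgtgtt
Dnai1, chr5:61525829-61526128 (+ strand): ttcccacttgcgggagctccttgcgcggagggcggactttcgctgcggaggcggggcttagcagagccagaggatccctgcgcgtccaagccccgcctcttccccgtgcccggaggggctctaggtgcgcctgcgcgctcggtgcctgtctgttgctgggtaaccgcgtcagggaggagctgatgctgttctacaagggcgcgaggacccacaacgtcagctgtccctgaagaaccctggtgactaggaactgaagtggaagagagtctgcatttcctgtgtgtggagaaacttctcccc
Sec14l3, chr14:83168008-83168307 (+ strand): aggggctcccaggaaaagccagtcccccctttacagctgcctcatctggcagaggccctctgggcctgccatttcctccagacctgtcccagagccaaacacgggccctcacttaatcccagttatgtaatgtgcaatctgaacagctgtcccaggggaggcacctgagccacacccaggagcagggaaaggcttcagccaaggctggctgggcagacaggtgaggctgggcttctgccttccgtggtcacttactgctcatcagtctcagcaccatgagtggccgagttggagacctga

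TATAAA stood in the gene's own orientation in the promoters of the secretory genes Scgb1a1, Bpifa1 and Reg3g, with its first base at positions -41, -47 and -32, counted from 0 at the start of the gene. It was found in 14.2% of 33469 promoters of the same length. That share and those below count a match on either strand at any position. None was counted for matches in 1 orientation or near these positions alone. Tekt1 held GTTGCCA at position -39, a motif found in 4.56% of promoters. GTAAACA was in none of the 6 windows and in 3.78% of all promoters. Dnai1 and Sec14l3 held no match to any of the motifs. A match is a description of letters and not of a bound site.

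The 75th percentile of the processed signal lay between 61.0 and 4172, between 43.1% and 82.5% of spots were well above background, and no spot was saturated. Values stood apart on 3 arrays. The young rat of replicate 2 killed 3 months after 50 kBq gave the array with the lowest percentile and the lowest share of spots above background, and dim probes have high values there because 0 lies close to the background. On replicate 3 of the same group and on replicate 2 of the controls of 7 months, the markers of the thyroid were low. Tg, thyroglobulin, was 0.14 and -0.69 on these arrays against 6.41 to 7.91 on the other 46 arrays. Nkx2-1, the thyroid transcription factor, was -5.37 and -5.71 against 0.29 to 3.37. These markers of the tissue on the label were thus far lower on both arrays than on any of the 46. The main results that rest on the 3 arrays are given with and without them.

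Bpifa1 was detected on every array and ranged from -4.16 to 5.18, a 648.4-fold span. Scgb1a1 was well above background on 42 of 49 arrays and ranged from -8.59, which was not well above background, to -0.79. These were the widest ranges of the members apart from that of Reg3g, whose highest value lies on the dim array. Arrays of the same group differed widely. The SD of single arrays within groups was 2.21 for Bpifa1 and 1.72 for Scgb1a1. The SD of the 13 group means, each over 3 or 4 arrays, was 1.68 and 1.42. A mean varies less than a single array, so these values do not rank the spread within groups against that between them.

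In the controls, Bpifa1 was 5.18, -1.19, 0.80 and -2.08 on the 4 arrays of 4 months and 3.09, 3.07 and 2.14 on the 3 arrays of 7 months. At 10 months it was -2.94, -0.13, -0.89 and -2.42, and at 13 months it was -2.01, -1.96 and 1.27. The 3 arrays of 7 months were all higher than the arrays of 10 and 13 months, and 1 array of 4 months was higher than them all. Scgb1a1 was -3.18, -5.70, -4.49 and -6.73 at 4 months and -3.20, -2.38 and -3.01 at 7 months. At 10 months it was -7.56, -5.90, -5.96 and -7.40, where the first and last were not well above background, and at 13 months it was -6.30, -5.27 and -5.03. The same 7-month arrays were high in both genes.

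In young rats given 50 kBq, Bpifa1 was 2.87, 2.31, 3.91 and -0.32 after 3 months and 2.26, 2.74, 2.17 and 3.42 after 6 months. After 9 months it was 3.67, -2.88, 4.92 and -1.35. The group of 6 months was uniformly high, while the group of 9 months held a high pair and a low pair. Scgb1a1 was -1.77, -2.13, -1.77 and -5.95 after 3 months, of which the second, on the dim array, was not well above background. It was -3.26, -2.41, -2.85 and -1.63 after 6 months and -2.44, -7.44 (not well above background), -1.66 and -5.90 after 9 months. The same pair of arrays was high for both genes at 9 months.

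At the other activities, 9 months after injection of young rats, Bpifa1 at 0.5 kBq was -2.21, -2.97, -3.78 and -1.52. The 3 arrays of 5 kBq gave -1.17, 1.38 and -0.30, and those of 500 kBq gave 0.49, -3.31, -2.02 and -0.36. For Scgb1a1 the values were -6.97, -5.36, -7.10 and -6.004 with 0.5 kBq, then -6.65, -4.67 and -6.40 with 5 kBq, and -4.94, -7.97, -6.33 and -5.04 with 500 kBq, of which -7.10 and -7.97 were not well above background. None of these arrays reached the level of the high pair at 50 kBq. In adult rats given 50 kBq, Bpifa1 was 3.95, 2.19, -2.68 and -4.16 after 3 months, 1.00, 1.01, -1.94 and 3.16 after 6 months, and -2.45, -1.04, 0.74 and -0.56 after 9 months. Scgb1a1 was -1.95, -3.65, -7.33 and -8.59 after 3 months, -4.78, -4.65, -6.45 and -0.79 after 6 months, and -6.60, -6.73, -4.75 and -6.18 after 9 months. The 3-month adult group held the lowest Bpifa1 value on replicate 4, where Scgb1a1 was not well above background, and its replicate 1 was among the 10 highest arrays in both.

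**Figure D1:**
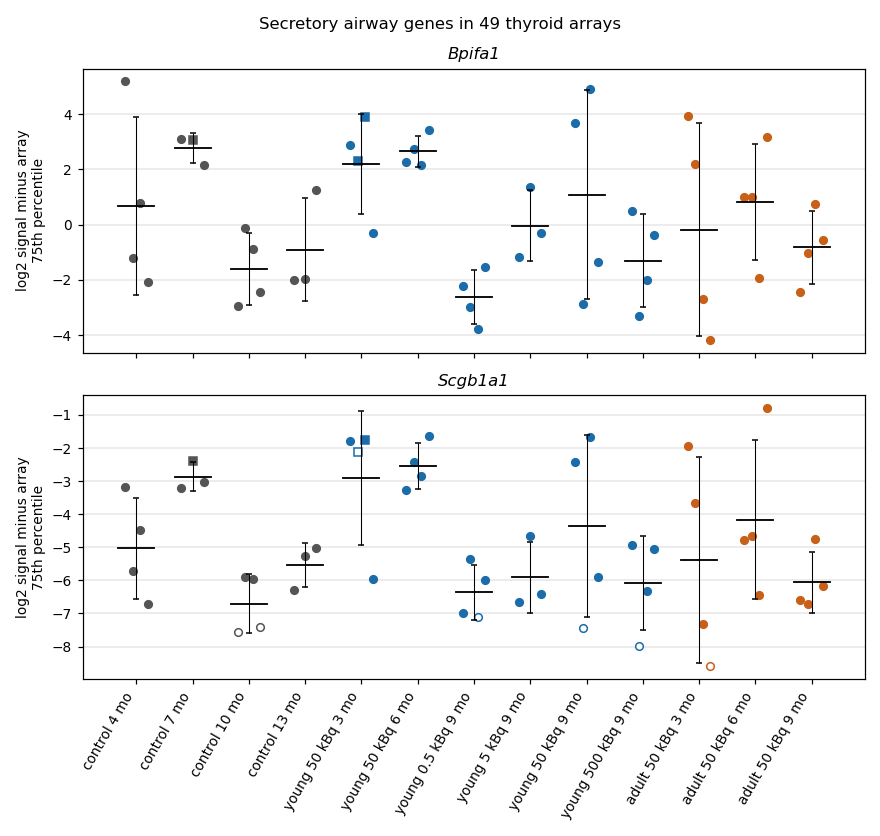
Bpifa1 (top) and Scgb1a1 (bottom), log2 signal minus the 75th percentile of the array, for each of 49 arrays by group (grey controls, blue young, orange adult). Filled symbols are well above background, open ones are not, squares are the 3 arrays that stand apart, lines and bars are the mean and SD. Controls of 7 months and young rats 6 months after 50 kBq sit high in both genes. Young rats 9 months after 50 kBq split into a high and a low pair. All arrays of the other 9-month groups, adult rats given 50 kBq included, lie below that high pair. So do all arrays of controls older than 7 months.

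A Bpifa1 value above 2 and a Scgb1a1 value above -4, limits set after the values were seen, were met on 16 arrays each, and these were the same 16 arrays. By age at death, they were 4 of 8 arrays at 4 months, 9 of 11 at 7 months, 3 of 23 at 10 months and 0 of 7 at 13 months. Without the 3 arrays that stand apart the counts at 4 and 7 months were 2 of 6 and 8 of 10. Scan dates, 3 in the file headers, did not separate the ages fully. At scan date 1 the count was 2 of 4 arrays at 4 months, 4 of 6 at 7 months, 1 of 10 at 10 months and 0 of 4 at 13 months. At scan date 2 it was 2 of 4, 4 of 4, 0 of 5 and 0 of 1. At scan date 3, with no array of 4 months, it was 1 of 1 at 7 months, 2 of 8 at 10 months and 0 of 2 at 13 months. At 4 months the counts hold untreated rats (1 of 4) and young rats given 50 kBq (3 of 4), whose replicates 2 and 3 stand apart. At 7 months they hold untreated rats (3 of 3), young rats given 50 kBq (4 of 4) and adult rats given 50 kBq (2 of 4). At 10 months they hold young (2 of 4) and adult rats (1 of 4) given 50 kBq. Untreated rats of that age (0 of 4) and those given 0.5 kBq (0 of 4), 5 kBq (0 of 3) or 500 kBq (0 of 4) had none. These counts were not tested for age or exposure, since the limits came from the values.

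Ordered by the group mean of Bpifa1, controls of 7 months were highest at 2.77 ± 0.54 (SD, n = 3), followed by young rats 6 months after 50 kBq at 2.65 ± 0.57 (SD, n = 4) and 3 months after 50 kBq at 2.19 ± 1.80 (SD, n = 4). Without the arrays that stand apart the means were 2.62 for the controls of 7 months, now below those young rats at 6 months, and 1.27 for young rats at 3 months. Young rats at 0.5 kBq were lowest at -2.62 ± 0.97 (SD, n = 4). The largest gap between neighbouring groups in that order was 1.10, the SD within groups was 2.21, and the group means spanned 5.39. Ordering many means makes the gaps between neighbours small, so the gaps cannot show whether groups differ. For Scgb1a1 the order began with young rats 6 months after 50 kBq at -2.54 ± 0.70 (SD, n = 4) and controls of 7 months at -2.86 ± 0.43 (SD, n = 3), and it ended with controls of 10 months at -6.71 ± 0.90 (SD, n = 4). Without the arrays that stand apart the controls of 7 months were at -3.11 and young rats 3 months after 50 kBq at -3.86. The largest gap with all arrays was 1.26, the SD within groups was 1.72, and the group means spanned 4.17.

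Over the 49 arrays Bpifa1 and Scgb1a1 had a Spearman rho of 0.925 and, without the 3 arrays that stand apart, 0.919 over 46 arrays. After the mean of each group was subtracted, the rho was 0.912, so the genes ran together between rats of the same group. The arrays share their normalization, and the values are given as a description with no test. Foxj1 followed them less closely, with a rho of 0.574 with Scgb1a1 and 0.552 with Bpifa1, which were 0.505 and 0.492 without the 3 arrays and 0.332 and 0.306 after the group means were subtracted.

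**Figure D2:**
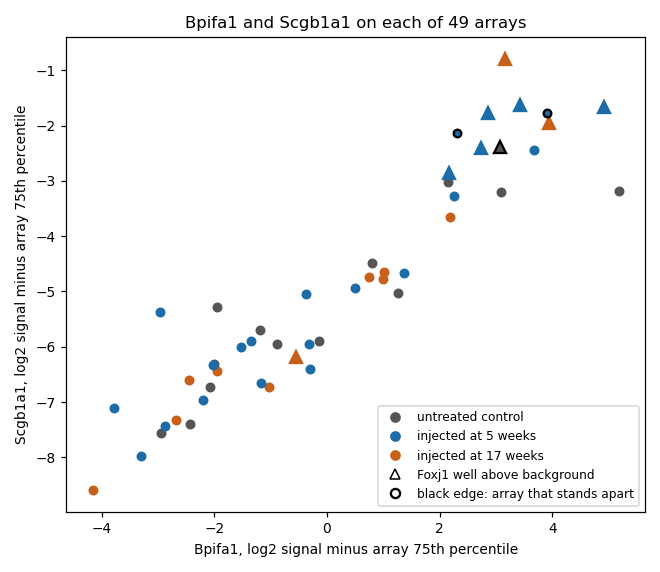
Scgb1a1 (vertical axis) against Bpifa1 (horizontal axis), both log2 signal minus the 75th percentile of the array, with 1 point for each of 49 arrays coloured by treatment. Triangles are the 9 arrays on which Foxj1 was well above background, and a black edge marks the 3 arrays that stand apart. The points rise along 1 line from lower left to upper right (Spearman rho 0.925), and 8 of the 9 triangles lie in the upper right.

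Foxj1 was well above background on 9 arrays, and 7 of these were among the 10 arrays with the highest Scgb1a1 signal and 6 among the 10 with the highest Bpifa1 signal. They were replicate 4 of the adult rats 6 months after 50 kBq (Foxj1 -6.72), replicates 2, 3 and 4 of the young rats 6 months after 50 kBq (-7.32, -7.43 and -5.82), replicate 3 of the young rats at 9 months and 50 kBq (-6.59), replicate 1 of the young rats at 3 months and 50 kBq (-7.08), replicate 1 of the adult rats at 3 months (-6.85), replicate 2 of the controls of 7 months (-6.53) and replicate 4 of the adult rats at 9 months (-7.81). The last was the exception, with Scgb1a1 at -6.18. No Foxj1 signal was well above background in the controls of 4, 10 or 13 months or at 0.5, 5 and 500 kBq.

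Dnai1 was well above background on 17 of 49 arrays and Sec14l3 on 45. All 3 arrays of young rats at 5 kBq had a detected Dnai1, at -6.28, -6.58 and -6.67, as did all 4 of the adult rats at 9 months, at -6.82, -6.85, -5.91 and -6.18. In no array of the controls of 4 months, of the young rats at 3 and 6 months after 50 kBq or of the young rats at 500 kBq was Dnai1 well above background. Its values ranged from -9.46 to -4.06 over all arrays, the upper end on the dim array. Sec14l3 ranged from -8.39 to -2.28, and again the highest value was on the dim array.

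Tekt1 varied least. It was well above background on 48 of 49 arrays, with values between -6.63 and -4.13 and an SD within groups of 0.56. The lowest group mean was that of 5 kBq, -5.78 ± 0.28 (SD, n = 3). The highest was that of 500 kBq, -4.75 ± 0.41 (SD, n = 4), a range of 1.03. Spearman rho of Tekt1 with Scgb1a1 was 0.0846 and with Bpifa1 0.0717. Reg3g lay at background, with a median of -8.51, and was detected on replicate 2 of the young rats at 9 months and 50 kBq (-6.37) and on replicate 3 of the controls of 13 months (-7.44). Its highest value, -1.69, was on the dim array and was not well above background.

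**Figure D3:**
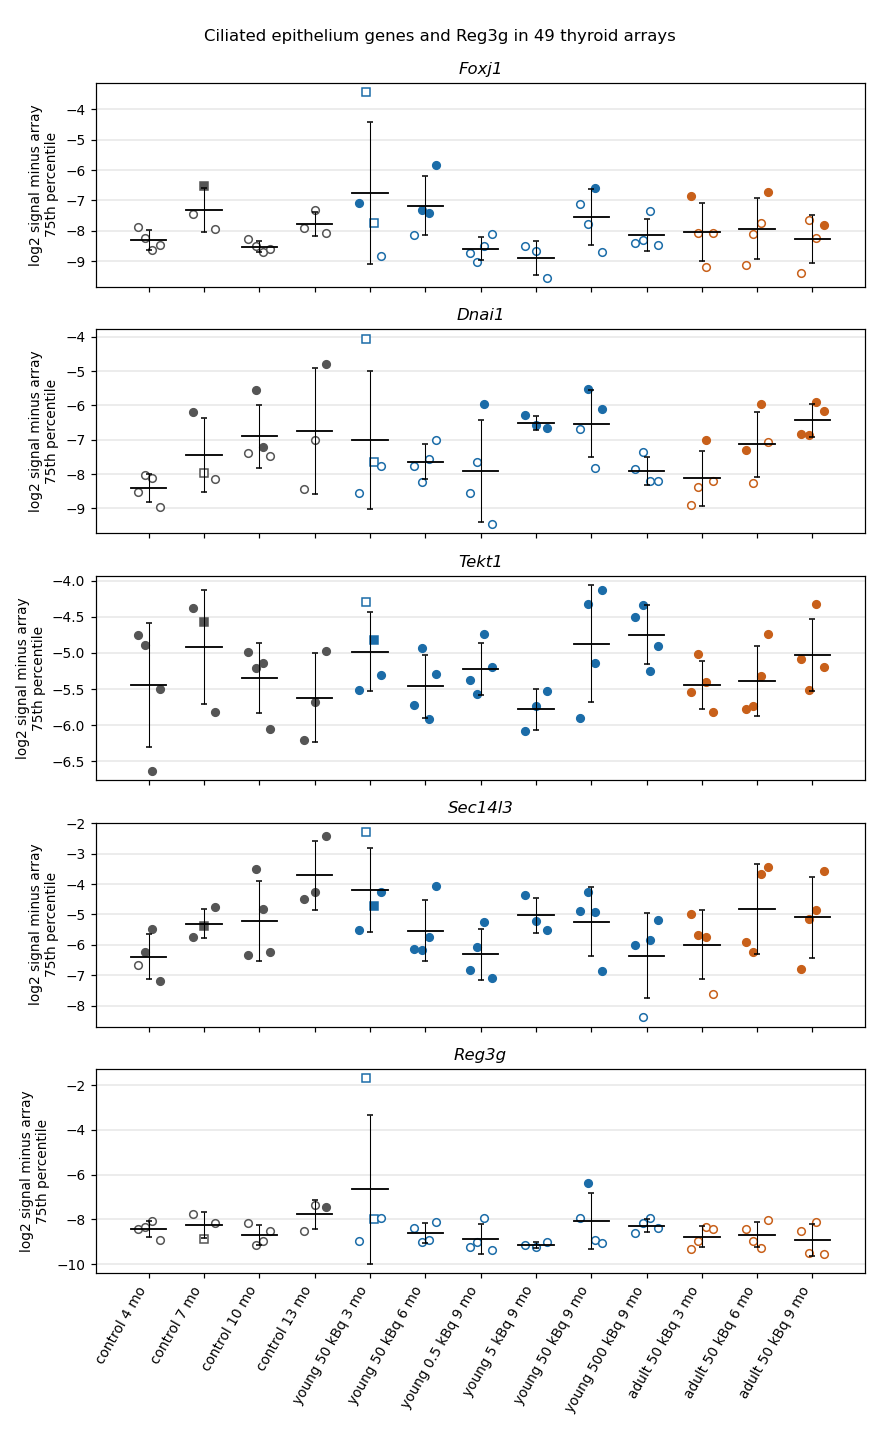
Foxj1, Dnai1, Tekt1, Sec14l3 and Reg3g, log2 signal minus the 75th percentile of the array, for each of 49 arrays by group (grey controls, blue young, orange adult; scales differ between panels). Filled symbols are well above background, open ones are not, squares are the 3 arrays that stand apart, lines and bars are the mean and SD. Foxj1 is filled on 9 arrays and Dnai1 on 17, while Tekt1 is filled on 48 and spans 5.645-fold.

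The 9 comparisons asked whether exposed rats differed from untreated rats of the same age. In a limma fit of all 49 arrays, calls needed an adjusted p (Benjamini-Hochberg) under 0.01 together with a change of over 1.5-fold either way, the cut-offs of the study. No member was called in any of the 9 comparisons. Over all tested probes, 0.0119% (3 probes) were called in each of 3 comparisons of young rats, those of 5 kBq and 50 kBq at 9 months and of 50 kBq at 3 months, 0.558% in adult rats after 9 months (141 probes) and 0% in the other 5 comparisons. At an unadjusted p below 0.05 the fit held 3 of the 54 tests of members, 2 of them in young rats 3 months after 50 kBq and 1 in adult rats 6 months after 50 kBq. Of all tested probes, 37.9% and 0.791% had such a p in these comparisons. Of 63 two-sided exact permutation tests of single members, which include Reg3g, none had a p below 0.05, and the smallest p that 4 arrays against 4 or 3 against 4 allow is 0.0286. The exposed and control arrays of a member did not separate fully in any comparison.

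The share of all tested probes whose exposed and control arrays did not overlap was 1.05%, 15.3%, 3.98% and 2.91% from the lowest to the highest activity in young rats at 9 months. It was 5.4% in young rats after 3 months, 7.82% in young rats after 6 months, 7.65% in adult rats after 3 months, 4.06% in adult rats after 6 months and 26.1% in adult rats after 9 months. The median log2 difference of the 7 members was -0.18, 0.19, 0.63 and 0.39 at the 4 activities at 9 months, against -0.00, -0.02, 0.04 and 0.06 over all tested probes. It was 1.54 in young rats after 3 months, where the median of all probes was 0.30, and -0.20 after 6 months, where it was -0.11. In adult rats it was -0.70, 0.40 and -0.50 after 3, 6 and 9 months, against -0.11, 0.06 and -0.14 over all probes. With the 3 arrays left out, the value for young rats after 3 months was 0.35.

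At 9 months in young rats the difference of Scgb1a1 from the controls was 0.34 ± 1.18 (SE), 0.80 ± 1.28, 2.35 ± 1.18 and 0.64 ± 1.18 from the lowest activity (0.5 kBq) to the highest (500 kBq), all with a limma adjusted p of 1. For Bpifa1 it was -1.02 ± 1.52 (SE), 1.56 ± 1.64, 2.68 ± 1.52 and 0.30 ± 1.52 in the same order, again with adjusted p of 1 in limma. The difference was largest at 50 kBq, the group with the high and the low pair, but its size depended on single arrays. Without replicate 3 it was 1.45 for Scgb1a1 and 1.41 for Bpifa1, and without replicate 2 it was 3.37 and 4.01. With all arrays, 3 of its 4 arrays for Scgb1a1 and 2 of 4 for Bpifa1 were above all 4 controls. Across the 4 exposed groups the slope per 10-fold of activity was 0.24 ± 0.38 (SE) for Scgb1a1 and 0.51 ± 0.48 for Bpifa1, with 0% of probes called. Within scan date 1 the difference of Scgb1a1 at 50 kBq was 2.79 (2 arrays against 3) and within scan date 3 it was 1.41 (2 against 1). Those of Bpifa1 were 2.99 and 1.90. At 500 kBq only scan date 3 held both groups, 1 array each, and the differences were -2.01 for Scgb1a1 and -2.42 for Bpifa1. At 5 kBq the differences of Scgb1a1 were 2.29 within scan date 1 (1 array against 3) and -0.45 within scan date 3 (1 against 1), and those of Bpifa1 were 3.21 and 0.58. At 0.5 kBq they were 0.48 and -0.05 for Scgb1a1 and -1.15 and -0.63 for Bpifa1. In the 50 kBq comparison all 9 measured cartilage genes were also higher (median 2.12) and 5 of 9 squamous epithelium genes lower (median -0.22), with none called. The cartilage level, a mean in log2 relative to each gene's mean, was 2.60 and 3.01 on replicates 1 and 3, the high pair. It was -0.48 and -0.37 on replicates 2 and 4, and between -0.86 and -0.80 in the controls. In other groups the cartilage level and these genes were high together on some arrays only. In young rats 3 months after 50 kBq it lay between 2.24 and 3.97, with 3 of 4 arrays high in both genes. In those after 6 months it lay between -0.83 and -0.64, with 4 of 4 high. On replicate 3 at 500 kBq it was 2.73, with Bpifa1 at -2.02. The part of the cartilage level in the difference was not tested.

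Scgb1a1 had its smallest unadjusted p in adult rats 6 months after 50 kBq, at 2.54 ± 1.18 (SE) above the controls of 10 months, with a limma adjusted p of 1 and an exact permutation p of 0.0857. The exposed mean was -4.17 ± 2.40 (SD, n = 4) and the control mean -6.71 ± 0.90 (SD, n = 4). Replicate 4, at -0.79, was the highest array of the whole series, and without it the difference was 1.41. Within scan dates 1 and 3 the difference was 2.17 (1 array against 3) and 3.24 (2 against 1). Bpifa1 had its smallest p in adult rats 3 months after 50 kBq, where it was -2.95 ± 1.64 (SE) relative to the controls of 7 months with a limma adjusted p of 0.997. The groups overlapped, with 2 arrays near the controls and 2 far below, and the difference was -4.32 without replicate 1 and -1.62 without replicate 4. Within scan date 2, the only one that held both groups, the difference was 0.45 (2 arrays against 2), of the opposite sign.

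**Figure D4:**
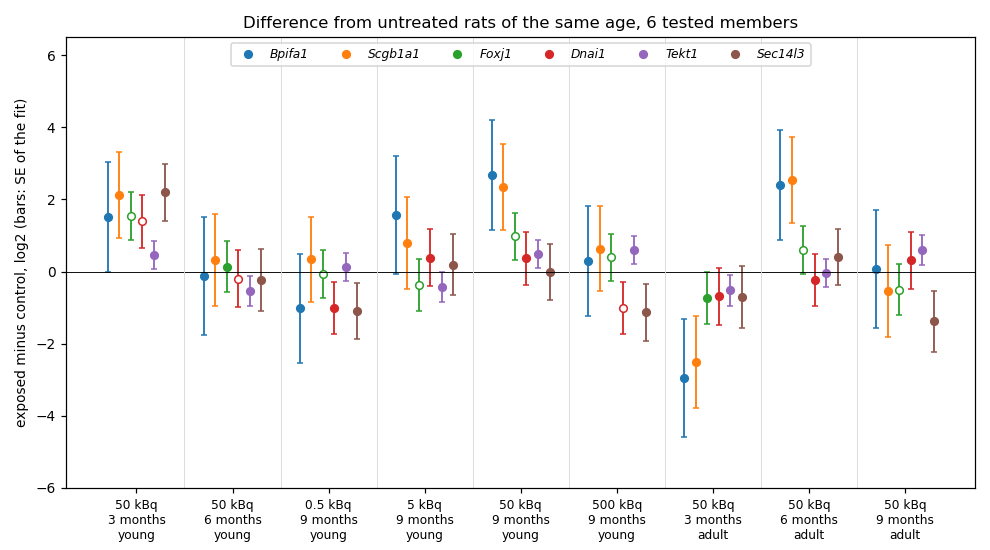
Difference of exposed from untreated rats of the same age, log2, for the 6 tested members in the 9 comparisons; bars are the SE of the limma fit. Open symbols are differences in which at least 1 of the groups had no array well above background for that gene. The bars of Bpifa1 and Scgb1a1 are the longest, and no member was called.

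Sec14l3 stood above the controls of 4 months in young rats 3 months after 50 kBq, by 2.19 ± 0.79 (SE), with a limma adjusted p of 0.048 and an exact permutation p of 0.0571. The exposed arrays were -5.51, -2.28, -4.72 and -4.28, and the controls -6.68, -6.22, -5.46 and -7.20. Replicate 1 overlapped the controls, and replicate 2 is the dim array. Without the 3 arrays that stand apart the difference was 1.499 ± 0.95 (SE), with a limma adjusted p of 0.545. Within scan dates 1 and 2 it was 1.95 and 2.44 (2 arrays against 2 each). For Foxj1 in the same comparison the means were -6.77 ± 2.34 (SD, n = 4) and -8.31 ± 0.32 (SD, n = 4) with a limma adjusted p of 0.0878. No control array and 1 exposed array were well above background, so no fold is given, and the unadjusted limma p was 0.564 without the 3 arrays. For Dnai1 the means were -7.01 ± 2.01 (SD, n = 4) and -8.41 ± 0.42 (SD, n = 4) with a limma adjusted p of 0.153, and no array of either group was well above background. Without the 3 arrays the adjusted p was 0.917. Tekt1 had its smallest p at 500 kBq, with a difference of 0.60 ± 0.39 (SE) and a limma adjusted p of 1.

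Values of the marker lists in that 3-month comparison stand beside these. All 9 measured cartilage genes were higher in the exposed rats with none called, and the mean level of that list, in log2 relative to the mean of each gene, lay between 2.24 and 3.97 in the exposed and between -0.99 and 1.88 in the control arrays. Of the 9 squamous epithelium genes 8 were lower with none called, with list levels between -1.93 and 2.11 in the exposed and between -2.07 and 5.49 in the control arrays. Of 12 follicular thyrocyte genes 10 were lower (median -1.19), as were all 3 parathyroid genes (median -4.08) and 3 of 6 C cell genes (median 0.00). All 7 skeletal muscle genes (median 1.28) and 4 of 6 smooth muscle genes (median 0.43) were higher. No gene of these lists was called. Without the 3 arrays the medians were 2.07 for cartilage, -5.41 for squamous epithelium, -0.07 for follicular thyrocytes, -2.62 for the parathyroid, 0.60 for C cells, 0.37 for skeletal muscle and -0.01 for smooth muscle. Their part in the differences of the members was not tested.

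Whether the difference from controls itself differed between groups was tested as interactions. In the contrast of young minus adult rats 3 months after 50 kBq, Scgb1a1 was 4.64 ± 1.74 (SE, limma adjusted p 0.0886) and Sec14l3 2.90 ± 1.16 (adjusted p 0.101). Without the 3 arrays that stand apart these were 3.44 and 2.25, with limma adjusted p of 0.752 and 0.745. Foxj1 had an adjusted p of 0.119, and 0.919 without the 3 arrays, and no size is given because it was well above background on at most 1 array of each of the 4 groups. No member was called in the interactions at 3, 6 and 9 months or in those of 9 against 3 months in young and adult rats, where 0% of probes were called. At an unadjusted p below 0.05 these 3 genes were the only ones among 30 tests of members, in a contrast where 29.6% of all tested probes had such a p.

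Between untreated rats of 13 and 4 months 5.15% of probes were called, 1302 in number, and no member. Sec14l3 was higher at 13 months by 2.68 ± 0.85 (SE), with a limma adjusted p of 0.0258, above the limit of 0.01. Its arrays did not overlap, at -4.48, -4.27 and -2.40 against -6.68, -6.22, -5.46 and -7.20, as for 34.3% of all tested probes. Dnai1 had a limma adjusted p of 0.131 and was well above background on 0 of 4 arrays at 4 months and 1 of 3 at 13 months, while Scgb1a1 was -0.51 ± 1.28 and Bpifa1 -1.58 ± 1.64, with adjusted p of 0.813 and 0.523. Of the C cell list, all 6 genes were higher at 13 months with none called, and the list level lay between 0.75 and 3.11 at 13 months and between -3.34 and -0.37 at 4 months. All 12 follicular thyrocyte genes were also higher, with levels between 0.94 and 1.29 at 13 months and between -1.12 and 0.91 at 4 months. Other lists lay lower at 13 months, with 8 of 9 squamous genes (median -5.31), 7 of 7 skeletal muscle genes (median -2.17), 7 of 9 cartilage genes (median -1.52) and 5 of 6 smooth muscle genes (median -1.06), none of them called. The part of these lists in the difference was not tested.

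Across all 49 arrays Sec14l3 and Dnai1 had a Spearman rho of 0.518 with each other. Their rho with the C cell list, of the calcitonin-producing cells (among them Calca, Calcb, Chgb, Scg2 and Pcsk1), was 0.608 and 0.66, and 0.706 and 0.694 over the 46 arrays that remain without the 3. With Scgb1a1 their rho was 0.308 and -0.15. Tekt1 had a rho of 0.519 with the list of other motile cilium genes and of 0.46 with the parathyroid list (Pth, Gcm2 and Casr), and of 0.599 and 0.592 without the 3 arrays. Scgb1a1 and Bpifa1 had a rho of -0.251 and -0.173 with the C cell list and of 0.104 and 0.0681 with the follicular thyrocyte list. Their rho was 0.453 and 0.538 with the list of other airway secretory genes. It was 0.281 and 0.271 with the cartilage list and 0.202 and 0.204 with the squamous epithelium list. These are descriptions across arrays that share a normalization.

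**Figure D5:**
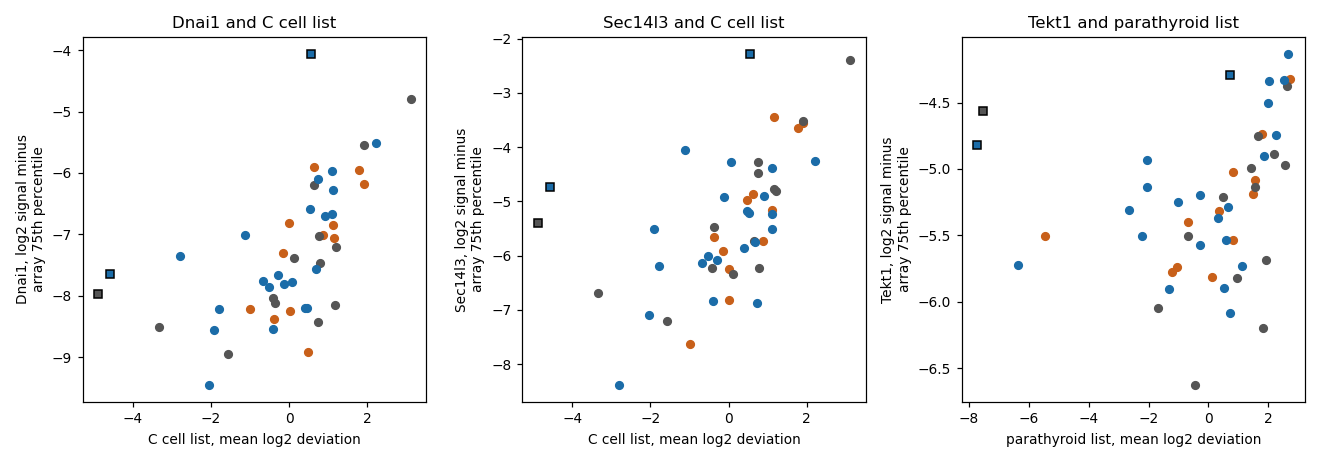
Dnai1 and Sec14l3 against the level of the C cell list, and Tekt1 against that of the parathyroid list, for each of 49 arrays (grey controls, blue young, orange adult; black-edged squares are the 3 arrays that stand apart). The horizontal axis is the mean over the list of each gene's log2 signal minus its mean over the arrays, and the vertical axis is log2 signal minus the 75th percentile of the array. Spearman rho is 0.66, 0.608 and 0.46 from left to right.

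Among 15668 other tested probes with a gene symbol, those most like the 3 secretory members with a probe, by the mean Spearman rho over the 49 arrays, were Gp2 (0.651), Scgb3a1 (0.623), Clca1 (0.622), Bpifb1 (0.622) and Sntn (0.535). Reg3g, 1 of the 3, was well above background on 2 arrays and had a rho of 0.112 with Scgb1a1 and 0.0367 with Bpifa1. It weighs equally in these means and in their order. Gp2 had 0.808 with Scgb1a1 alone and 0.798 with Bpifa1 alone. Scgb3a1 is another secretoglobin, Bpifb1 another BPI-fold protein, Clca1 a secreted protein of goblet cells, and Sntn encodes sentan of the ciliary tip. With Scgb1a1 alone, Clca1 had the highest rho, 0.917, and with Bpifa1 alone Scgb3a1 had 0.898. After the group means were subtracted these were 0.87 and 0.758. Csap1 was also among the closest to each alone, with 0.696 for Scgb1a1 and 0.797 for Bpifa1. Gp2, Clca1 and Csap1 are on none of the marker lists used here. The genes most like the ciliated members were Eno2 (0.467), Macroh2a2 (0.461), Ahi1 (0.456), Ric8b (0.452) and Lrp11 (0.447). The closest to Foxj1 alone included Sntn (0.658).

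A wider list of 20 airway secretory genes had 17 with a probe and 16 tested, and none was called in the 9 comparisons. Its median difference lay between -0.50, in young rats after 6 months, and 0.36, in adult rats after 6 months. Scgb3a1 was 3.15 ± 1.02 (SE) above the controls in young rats 9 months after 50 kBq with a limma adjusted p of 1, and Agr3, of the same list, was -2.40 ± 0.90 (SE) at 0.5 kBq, also with an adjusted p of 1. Several genes of the list were detected broadly. Bpifb2, Lypd2, Aldh3a1 and Scgb3a1 were well above background on all 49 arrays, whereas Scgb3a2 was so on 15, Tff2 on 4 and Ltf on 1.

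A list of 30 motile cilium genes had 19 with a probe and 17 tested, and none was called either. Its median difference lay between -0.31, in adult rats after 9 months, and 0.35, at 500 kBq. Spag6l, of the central pair of the axoneme, was 2.39 ± 0.57 (SE) above the controls in young rats after 3 months with a limma adjusted p of 0.022, in the comparison that holds the dim array. In that comparison 13 of the 19 genes of the list were higher (median 0.20). Without the 3 arrays that stand apart 15 of the 19 were lower (median -0.27). Zmynd10, a dynein assembly factor, was -0.77 ± 0.22 (SE) in young rats after 6 months with a limma adjusted p of 0.471. Several genes of that list were well above background on nearly every array, among them Rsph1, Rsph9, Spag6l and Rfx2 on all 49, as Tekt1 was on 48. Dnai2 was so on 5 arrays, Tmem212 on 1 and Spag16 on none. The level of this list had a Spearman rho of 0.85 with that of the parathyroid list over the 49 arrays, and Scgb1a1 and Bpifa1 had a rho of 0.123 and 0.0821 with it.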

How the data were processed

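Total RNA from single thyroids was hybridised to one-colour Agilent arrays. The authors deposited, for each array, the intensity that Agilent Feature Extraction 10.7.3.1 computed for each spot, background-subtracted and not scaled between arrays, and other marks per spot (well above background, saturated, outlier). The labels name Partek and the methods Nexus Expression 3.0, with the test and normalization not given in the sources used here. Deposited fold changes of the authors' own comparisons were not used. Control spots and outlier spots were left out, log2 intensities were set relative to the array's 75th percentile, and the spots of a probe were averaged. Probes were matched to symbols through RefSeq accessions (assembly GRCr8), for 17998 of 30367 probes.

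Groups were taken from the titles. The 25284 probes that passed the filter for dim signals (3 or more arrays well above background) entered 1 linear model in limma 3.58.1 (R 4.3.3, data.table package 1.17.8) with 1 mean for each of 13 groups, and p-values were adjusted over all of them. The prior degrees of freedom were 2.22. Python 3.11.15 (with numpy 2.4.6, pandas 2.3.3, matplotlib 3.10.9) read the files and drew plots, and the fit was tested on simulated data. The members and the 11 gene lists (119 genes, 95 with a probe) were chosen with earlier results of these data known. The lists were the secretory and the ciliated members, other airway secretory, other motile cilium, squamous epithelium, tracheal cartilage, follicular thyrocyte, C cell, smooth muscle, skeletal muscle and parathyroid. Named differences are those of each tested member in the comparison of the 9 with its smallest p, those without overlap of arrays, and those of Scgb1a1 and Bpifa1 at the 4 activities at 9 months; list examples are those with the smallest p. Alternatives were quantile normalization, normexp background with an offset of 50, other filters on dim probes, replicate number, slide (8) or scan date (3) as a block, array weights, averaged probes, smaller fits, an adjusted p under 0.05 with no fold cut-off, each array left out, and, added after the data were seen, the 3 arrays that stand apart left out. Same-numbered arrays were not treated as pairs. The correlation of their deviations was above 0.1 in 10 of 32 pairs, from -0.52 to 0.497. In 1 of the 9 comparisons, young rats 6 months after 50 kBq, all 3 pairs were above it (0.33, 0.32 and 0.139), and the replicate block called no member there either. The number of arrays limits the precision of all values. Values of some single genes of the marker lists are not reported here.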

Additional observations from a re-analysis of the deposited data

Results flagged for a closer look

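Among 70 sets of 4 arrays, 7 members in each of 10 groups of 4 arrays, 4 had 1 array far from the other 3. By chance about 1 in 20 such sets would have one. Scgb1a1 in young rats 3 months after 50 kBq was -5.95 on replicate 4 against -2.13 to -1.77 on the others. Reg3g in the same group was -1.69 on replicate 2, the dim array, against -8.99 to -7.92, and was not well above background. Foxj1 at 500 kBq was -7.34 on replicate 3 against -8.46 to -8.30, with none of the 4 well above background. Dnai1 in the controls of 10 months was -5.55 on replicate 2 against -7.47 to -7.21.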

How the results depend on the processing

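No member was called in the 9 comparisons under any alternative that kept the cut-offs, those with 1 array left out included. At an adjusted p under 0.05 with no fold cut-off 1 member was called over the 9 comparisons (Sec14l3 in young rats after 3 months) and 1 between controls of 13 and 4 months, and 5745 probes over the 9 comparisons. The number of probes called over the 9 comparisons, 150, was 47 with normexp background, 20 with no filter on dim probes, 15 with the replicate block, 322 with slide as a block, 12 with scan date as a block, 8826 with array weights, 4 with each pair of groups alone and 2278 without the 3 arrays that stand apart, and from 6 to 4497 with 1 array left out. It was 6 without replicate 1 or 2 of the adult rats at 9 months or of the controls of 13 months, 19 without replicate 4 of those adult rats and 99 without replicate 4 of the young rats 9 months after 50 kBq. It was 4497, 1140, 292 and 3996 without replicates 1 to 4 of the young rats 3 months after 50 kBq, 899 without replicate 3 of the adult rats at 9 months, 316 without replicate 3 of the controls of 13 months, 260 without replicate 4 at 500 kBq, and 232 and 259 without replicates 1 and 2 of the controls of 7 months. Array weights were estimated gene by gene because the default estimate did not converge. The replicate block changed no member's call. The count of exact tests with p under 0.05, 0 of 63, was 1 with quantile normalization, 4 with normexp background and from 0 to 3 with 1 array left out. The median difference of the members in young rats after 3 months, 1.54 (the value of Foxj1), was 0.25 with array weights, 0.35 without the 3 arrays that stand apart and from 0.43 to 2.22 with 1 array left out, the lowest without the dim array. Of 163 named differences under other settings, 6 changed sign. These were Scgb1a1 at 0.5 kBq (-0.0857) and 5 kBq (-0.10) with normexp background, Scgb1a1 at 5 kBq (-0.22) and 500 kBq (-0.16) and Bpifa1 at 500 kBq (-0.10) with slide as a block, and Scgb1a1 at 500 kBq (-0.0022) with scan date as a block. The adjusted p of Sec14l3 in young rats after 3 months ranged from 0.0232 to 0.601 over other settings. The difference of Bpifa1 at 500 kBq lay between -0.30 and 0.97 with 1 array left out, below 0 without replicate 1 or 4 of the exposed or replicate 1 of the control arrays. The causes were not tested.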
